A study of Mus musculus with 7 samples.

Results

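The regions described here were stretches of the genome that held 5-hydroxymethylcytosine (5hmC) in differentiating ATDC5 cells at day 5 and were no longer listed at day 10. They were chosen by the overlap of 2 lists. A region was taken when it stood in the day 5 5hmC list, carried a gene symbol in the authors' annotation, and shared no base with any region of the day 10 5hmC list. Of 2058 day 5 regions, 880 met the rule, and they were assigned to 794 genes. The choice used the positions in both lists, so that the absence of these regions at day 10 is the rule itself and not a finding. The threshold of either list was an enrichment of 10-fold or more, so a region missing at day 10 was below that threshold or not called, which is not the same as having lost all 5hmC.

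ATDC5 is a mouse line of chondrogenic progenitor cells, derived from a teratocarcinoma, which was made to differentiate here with insulin, transferrin and selenium in the medium. All groups were cells of this line at different days, and the labels give no other treatment or genotype. Day 5 and day 10 5hmC were each measured in 2 samples that the authors merged into 1 list per day, and 5-methylcytosine (5mC) was measured in 1 sample at day 0 and 1 at day 10. A single day 0 input sample was not analysed here. The days are those of the labels. The text of the study names different days, and the direction of every comparison of days rests on the labels. With 1 list for each mark and day there was no spread between replicates, and the depth of the libraries is unknown, so intervals below are 95% Wilson intervals and cover counting error over regions only.

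5hmC is made from 5mC by the TET dioxygenases. It is both an intermediate on the way to unmethylated cytosine and a lasting mark, and it is found mainly in the bodies of expressed genes and at enhancers. In cartilage, SOX9, SOX5 and SOX6 drive the chondrocyte programme, RUNX2 and RUNX3 act in chondrocyte maturation, and FOS and JUN proteins, which form the dimeric factor AP-1, bind many enhancers that respond to growth signals.

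Members of the region set are shown first by their sequence, because a short string bound by AP-1, TGACTCA or its reverse complement TGAGTCA, was, of the strings searched, the most frequent in their centres. For each of 12 lists of genes described below, the region at a listed gene with this string nearest to its midpoint is given, where it had such a string outside a UTR. Lists for TGF-beta and BMP, WNT, insulin and PI3K, and other lineages had none to print. Bmpr1b, of the TGF-beta and BMP list, did have a string in its central 200 bp, but its window was not printed. The 3 regions with 2 strings in the window and a string closest to the midpoint follow. Each line is the central 200 bp of a region on the plus strand of GRCm38 (RefSeq GRCm38.p6), with AP-1 strings in capitals.
Runx3, chr4:135169108-135169307: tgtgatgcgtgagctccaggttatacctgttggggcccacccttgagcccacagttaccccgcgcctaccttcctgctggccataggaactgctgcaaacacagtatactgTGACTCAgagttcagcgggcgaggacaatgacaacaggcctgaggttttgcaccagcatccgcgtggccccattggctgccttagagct
Col27a1, chr4:63217575-63217774: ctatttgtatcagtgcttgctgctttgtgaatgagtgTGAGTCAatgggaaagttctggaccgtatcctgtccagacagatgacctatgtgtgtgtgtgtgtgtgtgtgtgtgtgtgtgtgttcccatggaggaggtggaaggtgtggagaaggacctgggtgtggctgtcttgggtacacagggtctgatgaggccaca
Lima1, chr15:99814666-99814865: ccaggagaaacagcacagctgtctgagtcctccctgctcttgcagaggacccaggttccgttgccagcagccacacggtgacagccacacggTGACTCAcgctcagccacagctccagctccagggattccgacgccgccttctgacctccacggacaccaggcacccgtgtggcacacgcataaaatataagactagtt
Ets2, chr16:95712331-95712530: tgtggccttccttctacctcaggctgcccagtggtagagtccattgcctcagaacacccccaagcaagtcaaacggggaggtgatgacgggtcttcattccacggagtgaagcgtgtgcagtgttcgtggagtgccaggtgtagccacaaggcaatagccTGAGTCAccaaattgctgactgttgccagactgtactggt
Fosl2, chr5:32146431-32146630: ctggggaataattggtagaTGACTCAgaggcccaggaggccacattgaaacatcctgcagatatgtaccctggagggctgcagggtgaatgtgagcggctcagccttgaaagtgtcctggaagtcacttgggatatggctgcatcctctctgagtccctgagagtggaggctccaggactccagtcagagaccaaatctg
Yap1, chr9:7950341-7950540: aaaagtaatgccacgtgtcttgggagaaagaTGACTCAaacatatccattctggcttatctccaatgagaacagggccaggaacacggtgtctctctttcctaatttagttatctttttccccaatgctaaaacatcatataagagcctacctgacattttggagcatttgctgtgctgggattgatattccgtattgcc
Arid1b, chr17:5327608-5327807: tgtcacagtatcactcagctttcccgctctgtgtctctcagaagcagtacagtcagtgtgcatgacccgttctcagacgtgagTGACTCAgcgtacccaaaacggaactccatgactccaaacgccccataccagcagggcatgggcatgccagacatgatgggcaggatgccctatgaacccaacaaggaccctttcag
Gli3, chr13:15461639-15461838: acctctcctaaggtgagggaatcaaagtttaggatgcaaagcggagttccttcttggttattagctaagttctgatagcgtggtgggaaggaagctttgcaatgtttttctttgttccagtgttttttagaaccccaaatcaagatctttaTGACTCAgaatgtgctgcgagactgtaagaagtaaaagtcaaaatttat
Ptprm, chr17:67233163-67233362: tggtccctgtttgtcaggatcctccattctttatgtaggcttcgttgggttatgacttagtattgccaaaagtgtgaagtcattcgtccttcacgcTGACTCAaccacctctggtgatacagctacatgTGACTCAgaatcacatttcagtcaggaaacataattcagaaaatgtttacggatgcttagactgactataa
Gm10863, chr15:79176964-79177163: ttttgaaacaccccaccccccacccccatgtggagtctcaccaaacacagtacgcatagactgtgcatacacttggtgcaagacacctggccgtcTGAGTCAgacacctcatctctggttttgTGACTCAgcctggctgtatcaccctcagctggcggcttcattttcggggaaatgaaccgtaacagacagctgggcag
Zcchc4, chr5:52794020-52794219: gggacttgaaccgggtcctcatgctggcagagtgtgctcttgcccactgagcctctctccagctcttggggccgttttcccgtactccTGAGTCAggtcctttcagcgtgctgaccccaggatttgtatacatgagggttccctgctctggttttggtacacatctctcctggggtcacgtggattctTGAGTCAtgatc

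The windows at Runx3, Col27a1, Lima1, Ptprm, Gm10863 and Zcchc4 lay in regions that touched only introns of those genes, the regions at Ets2, Fosl2, Yap1 and Arid1b also touched a coding exon, and the window at Gli3 lay upstream of the gene. In Ptprm, which encodes a receptor tyrosine phosphatase, an AP-1 string was centred 1 bp from the midpoint. In Lima1, which encodes an actin crosslinking protein, the string lay 5 bp from it, and in Arid1b, which encodes a subunit of the BAF chromatin remodelling complex, it lay 14 bp from it. At Fosl2, which encodes an AP-1 subunit, it lay 78 bp from the midpoint.

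AP-1 strings were found in the central 200 bp of 195 of the 880 regions (22.2%, interval 19.5% to 25.0%). In windows of the same width placed 2000 bp beyond either edge of the same regions they were found in 51 of 1760 (2.90%), and around the starts of 21951 protein-coding genes in 2.79%. Over the regions of all 4 lists the share was 9.40%. The strings were concentrated at the centre. In each of the 4 bins of 50 bp within 100 bp of the midpoint, 5.80% to 6.36% of regions had a string centred there, against 0.682% to 1.36% in the 2 outermost bins on each side, 900 to 1000 bp away. Of the 195 regions, 104 (53.3%) had their nearest string within 50 bp of the midpoint, and the median distance was 47 bp. Over the whole region instead of its centre, 342 regions held 1 string, 70 held 2 and 8 held 3 or more, while 460 held none.

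**Figure D1:**
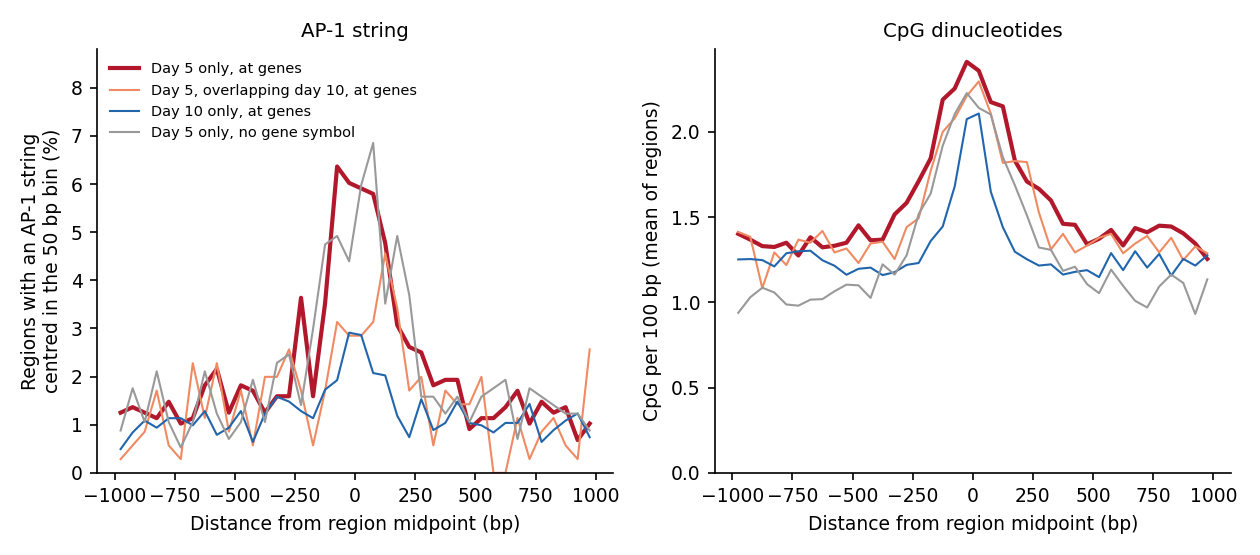
Left, share of regions (%) with an AP-1 string centred in each 50 bp bin, and right, mean CpG dinucleotides per 100 bp, both against distance from the region midpoint in bp, for 4 region lists (lines, without error). In the AP-1 bins within 50 bp of the midpoint, day 5 only regions at genes stood at 6.02% and 5.91% and day 10 only regions at genes at 2.91% and 2.86%, while CpG peaked at the midpoint in all 4 lists.

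Day 5 only regions at genes held the AP-1 string more often than the 351 day 5 regions at genes that overlapped a day 10 region, called shared regions below. The share was 22.2% against 11.7% (41 of 351, interval 8.73% to 15.5%), a difference of 10.5 percentage points (two-sided Fisher's exact test, Benjamini-Hochberg adjusted p = 0.000127 over 18 motif tests). It was also above the 9.33% (189 of 2026) of day 10 only regions at genes (adjusted p = 3.02e-18, same Fisher test). Against the 569 day 5 only regions without a gene symbol (20.9%), no difference was shown (Fisher's exact test, adjusted p = 0.826). These tests compare lists of regions and not samples. Day 10 regions were much narrower than day 5 regions, with a median of 146 bp at the day 10 only regions against 803 bp, so that the same 200 bp window reached past the edges of many of them. The part of region width in the comparison with day 10 was not tested. Shared regions had a median width of 883 bp.

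By gene location, the string was in 32 of 154 regions placed at promoters (20.8%, interval 15.1% to 27.9%). It was in 40 of 149 placed at a coding exon (26.8%, 20.4% to 34.5%) and in 102 of 488 intronic ones (20.9%, 17.5% to 24.7%). The share was lowest in regions at other exons (9 of 54, 16.7%, 9.02% to 28.7%) and highest in those outside annotated genes (12 of 35, 34.3%, 20.8% to 50.8%). The intervals of all 5 locations overlap. Regions with and without the string had similar widths (medians 807 and 803 bp) and CpG per 100 bp (medians 1.70 and 1.65). A TEAD string was in 11.8% of those with AP-1 and in 14.0% of those without, and a RUNX string was in 7.69% and 9.05%.

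Strings of other factors were less distinctive. TEAD factors (GGAATG, the partners of YAP), RUNX factors (TGTGGTT) and SOX factors (ACAAAGG or ACAATGG) were searched on both strands, as were NF1 (CTTGGCAG or CTTGGCAA) and the cyclic AMP response element CRE (TGACGTCA). None of these strings contains another. The TEAD string was in 119 of the 880 central windows (13.5%) and in 9.38% of flanks, the RUNX string in 77 (8.75%) and in 4.72% of flanks, and the SOX string in 71 (8.07%) and in 6.59% of flanks. NF1 was in 35 (3.98%) against 2.27%, and CRE in 3 (0.341%) against 0.171%. Around gene starts the shares were 7.98% for TEAD, 3.07% for RUNX, 5.18% for SOX, 1.91% for NF1 and 2.01% for CRE. For these 5, no difference between the day 5 only regions at genes and the other 3 lists passed the adjusted threshold of 0.05 (Fisher's exact tests as above). A match to a string is a description of the sequence and does not show that the factor was bound.

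**Figure D2:**
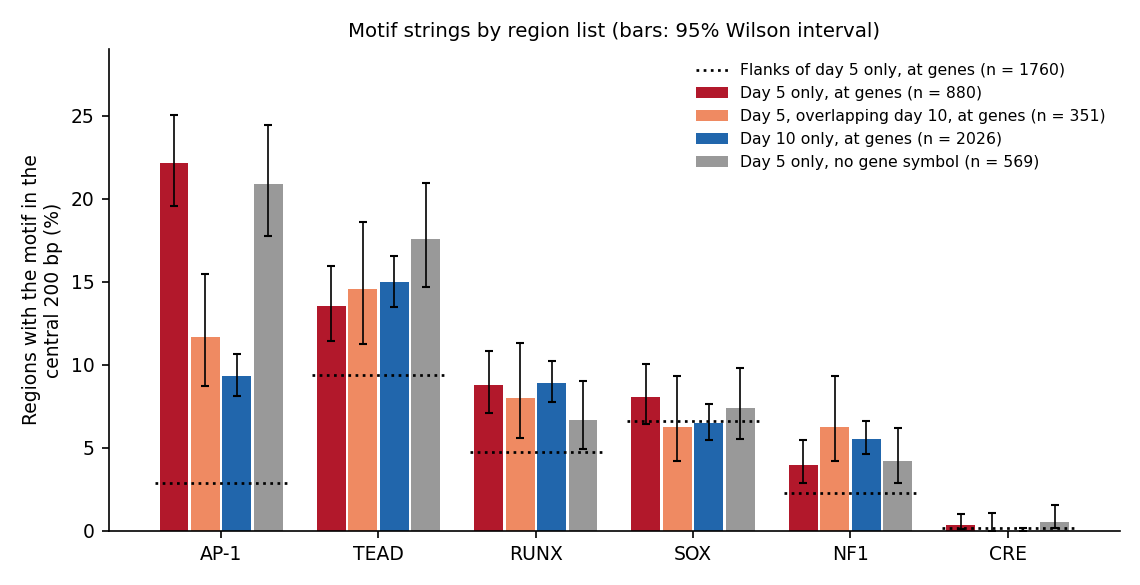
Share of regions (%) with each motif string in the central 200 bp, for 4 region lists (bars, with 95% Wilson intervals) and for the flanks of the day 5 only regions at genes (dotted lines). AP-1 stood at 22.2% and 20.9% in the day 5 only lists and at 11.7% and 9.33% in the other lists, whereas the other motifs had overlapping intervals or small shares in all 4.

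Day 5 only regions at genes were richer than their flanks in CpG, the dinucleotide in which most cytosine methylation takes place. The median was 1.66 CpG per 100 bp (quartiles 1.29 and 2.13) against 1.10 in flanks of equal width, and 688 of 880 regions (78.2%) were above their own flanks. The median difference was 0.54 per 100 bp (95% interval of the median 0.48 to 0.59). The GC content had a median of 49.4% against 45.8% in flanks. Sequence marked as repeat made up a median of 10.1% of a region and 21.8% of its flanks. Shared regions had near the same values, with a median of 1.61 CpG per 100 bp and 9.96% repeat, with overlapping quartiles. Medians were 1.79 CpG per 100 bp in day 10 only regions at genes and 1.54 in day 5 only regions without a symbol. The median CpG difference from flanks was 0.55 in shared regions, 0.62 in those without a symbol and 0.75 in day 10 only regions. Higher CpG than in flanks was thus not particular to day 5 only regions at genes. Their mean CpG density rose towards the midpoint, from 1.40 and 1.26 per 100 bp in the outermost bins on the left and right to 2.41 at the centre.

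Most day 5 only regions lay more than 10000 bp from any day 10 5hmC region. The day 10 list held 4164 regions over the whole genome, and it is the list that the rule used. Gaps from other regions or positions were not measured, so the values below are not shown to be unusual. The median gap to the nearest day 10 region was 109.8 kb, and the quartiles were 37.6 and 273.9 kb. When only a day 10 region covering at least 50% of a day 5 region removed it, so that 1224 regions were taken, some of them overlapping day 10, the median was 46539 bp. A day 10 region lay within 1000 bp of 10 regions (1.14%), within 10000 bp of 78 (8.86%) and within 100000 bp of 421 (47.8%). The regions nearest to failing the rule were at D330050G23Rik (chr2:116913576-116914343), with a gap of 11 bp, at Gm12159 (chr11:45103106-45103982), with 70 bp, and at Lhfp (chr3:53195544-53196437), with 150 bp. On the other side of the rule, the smallest overlaps were 47 bp at Ube2h (chr6:30252368-30253110) and 57 bp at both Traf2 (chr2:25525454-25526030) and Deaf1 (chr7:141319813-141320347). Where a day 5 region did overlap day 10, the overlap was mostly a small part of it. Only 7 of the 351 shared regions had at least 50% of their width covered by a day 10 region. Region width limits this count. Day 10 only regions at genes had a median width of 146 bp and a maximum of 603 bp, against a median of 883 bp for shared regions.

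**Figure D3:**
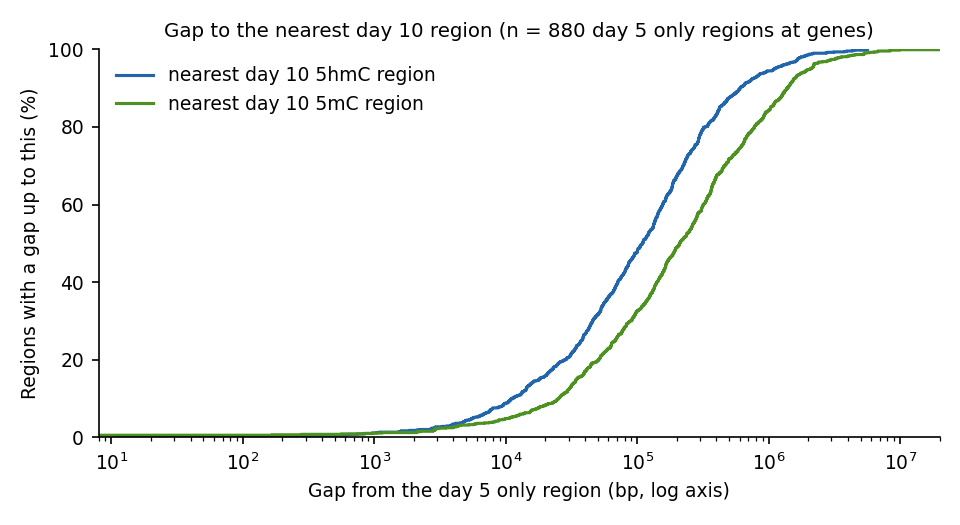
Cumulative share of the 880 day 5 only regions at genes (%) by the gap to the nearest day 10 5hmC region and to the nearest day 10 5mC region (bp, log axis), with the 5 regions that overlap 5mC counted at the left edge. A gap of up to 10000 bp was found for 8.86% of regions with 5hmC, and the median gaps were 109.8 kb and 210.7 kb.

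Most genes with a day 5 only region had no day 10 5hmC region assigned to them, while a minority had one at another place. Of the 794 genes, 237 (29.8%, interval 26.8% to 33.1%) also had a day 10 5hmC region at another place, against 7.38% of 21913 protein-coding genes. Under the 50% rule the share was 47.5%. For 287 of the 880 regions a day 10 region of the same gene could be measured from, and its median gap was 30.9 kb. A day 10 only region was in 216 of the genes (27.2%) and a shared region in 51 (6.42%). Genes with a day 5 only region were long, with a median length of 74463 bp against 17414 bp for all protein-coding genes. A longer gene has more room for any region, and the part of gene length in this share was not tested.

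The 5mC lists were short, with 2401 regions at day 10 and 326 at day 0, and few day 5 only regions overlapped them. The overlap of other parts of the genome with these lists was not measured, so a low share is not shown to be particular to these regions. At day 10, 5 of the 880 regions (0.568%) overlapped a 5mC region, and none overlapped a region of the day 0 5mC list. The 5 lay at Zmiz1 (chr14:25508796-25510270, 899 bp shared), Acoxl (chr2:128123197-128123882, 365 bp), D630045J12Rik (chr6:38157510-38158667, 956 bp), Gm5577 (chr6:87982313-87983245, 127 bp) and Cldn34d (chrX:76598555-76599268, 714 bp). Zmiz1 encodes a transcriptional coactivator. Shared regions overlapped day 10 5mC more often, in 10 of 351 (2.85%), a difference of 2.28 percentage points (Fisher's exact test, adjusted p = 0.0136 over 6 tests). When a 5mC region within 1000 bp was counted, the numbers were 10 of 880 and 11 of 351 and the adjusted p was 0.15. Day 10 only regions had 5 of 2026 and day 5 only regions without a symbol 3 of 569, with no difference shown (Fisher's exact tests, adjusted p = 0.545 and 1). The study names stages by which the day 10 lists of the marks may not be of the same day.

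Introns held most of the regions. A region was placed at a promoter when it touched the 5000 bp upstream of an annotated gene start, and otherwise at a coding exon, another exon or an intron, in that order. Of the 880, 154 (17.5%) were placed at promoters, 149 (16.9%) at a coding exon, 54 at another exon, 488 (55.5%) in an intron and 35 at no gene. The shared regions had 14.8%, 13.4% and 61.8% at promoters, coding exons and introns, and the differences did not pass the test (Fisher's exact tests, adjusted p = 0.272, 0.171 and 0.0957). Against the day 10 only regions, those of day 5 were placed at coding exons more often (16.9% against 4.54%, Fisher's exact test, adjusted p = 3.1e-25). They were placed in introns less often (55.5% against 71.0%, same Fisher test, adjusted p = 2.28e-15). A region of 803 bp touches an exon more easily than a region of 146 bp. When each region was placed by its midpoint alone, the coding exon difference was 4.04 points (59 of 880 against 54 of 2026, Fisher's exact test, adjusted p = 5.8e-06) and the intron difference was 5.39 points (adjusted p = 0.0107), with the same direction. These p-values were adjusted over the 6 location tests.

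**Figure D4:**
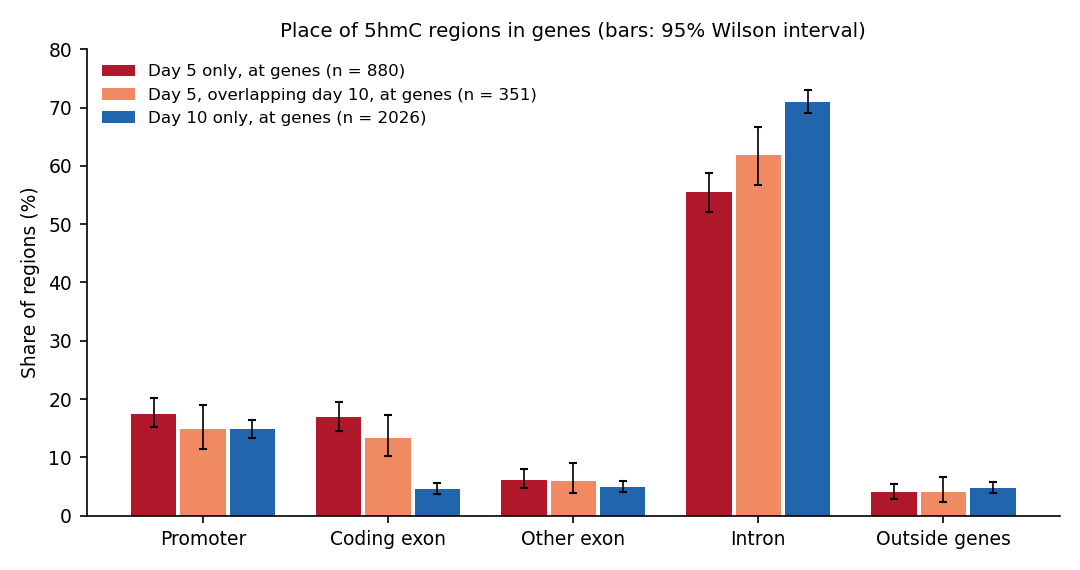
Share of regions (%) at each place in genes, for day 5 only, shared and day 10 only 5hmC regions at genes (bars, with 95% Wilson intervals). Each region was placed once, in the order promoter, coding exon, other exon and intron. Coding exons held 16.9% of the day 5 only regions and 4.54% of the day 10 only regions, and introns 55.5% and 71.0%.

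Within the gene that the authors named, the regions were spread along its length. Of 778 regions inside a gene, divided into 10 equal stretches of the gene, 90 were in the stretch at the start and 97 in that at the end, with 59 to 86 in each between. The median distance of the midpoint from the start of the gene was 30.4 kb, and 53 of 869 regions (6.10%) were within 1000 bp of it. By chromosome, chromosome 11 held most (90, or 0.737 per Mb) and chromosomes 12 (11, 0.0916 per Mb) and X (5, 0.0292 per Mb) held few. Per 100 protein-coding genes, chromosome 11 held 5.49 regions, below the 6.35 of chromosome 8. On that measure chromosomes 7, 12 and X held 1.09, 1.71 and 0.527. The other lists were also sparse on chromosomes 12 and X. Chromosome 12 held 1.14% of the shared and 1.53% of the day 10 only regions, beside 1.25% of the day 5 only ones, and chromosome X held 0.57%, 0.642% and 0.568%. Copy number of these chromosomes in the line was not examined.

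Of the 794 genes, 718 had 1 region, 67 had 2, 8 had 3 and 1 had 4. The gene with 4 was Ppm1h, which encodes a protein phosphatase. Its regions were at chr10:122739690-122740297, chr10:122848505-122849143, chr10:122890514-122891580 and chr10:122920244-122921212, and the first and the last held an AP-1 string in their centre. No day 10 5hmC region was assigned to Ppm1h, and the nearest lay 976400 bp from its first region. Rasa3, which encodes a GTPase-activating protein for Ras and Rap, had 3 intronic regions (chr8:13624460-13625576, chr8:13643513-13644497 and chr8:13668371-13669214) and no day 10 5hmC region either. Glis1, which encodes a zinc finger factor of the GLI-related family, had 3 (chr4:107457261-107458397, chr4:107522340-107523377 and chr4:107564152-107564961) beside 1 shared region. These were genes in which 5hmC was listed at several places at day 5 and at few or none at day 10.

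The other genes with 3 regions also had 5hmC at day 10, except Mir3098, a microRNA gene that GENCODE and RefSeq place on another chromosome than the 3 regions given its symbol. Msi2, which encodes an RNA-binding protein of progenitor cells, had 1 shared and 2 day 10 only regions. Dlgap2, which encodes a synaptic scaffold protein, likewise had 1 shared and 2 day 10 only regions. Atxn1, which encodes a transcriptional corepressor, had 4 day 10 only regions, and Sgms1, the sphingomyelin synthase gene, had 3. Wnt5b is described with its pathway below. The widest region of all was in Ror2, a receptor tyrosine kinase for WNT5A, at chr13:53231285-53234014 (2730 bp). It was followed by regions at Sp110 (2591 bp), Trio (2420 bp), Wscd2 (2195 bp) and Mfrp (2131 bp). Trio encodes a guanine nucleotide exchange factor for small GTPases. Over all 880 the width ran from 383 to 2730 bp.

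Genes of cartilage and of its signalling pathways were followed through 12 lists with 644 genes in all. Over 21913 protein-coding genes, 3.45% had a day 5 only region, 1.39% a shared region and 6.49% a day 10 only region. Of the 644 listed genes, 68 (10.6%) had a day 5 only region. Listed genes were longer than most, with a median of 45618.5 bp. When each listed gene was given the share seen among protein-coding genes of its own length class (20 classes), the number came to 35.7. For shared regions the count was 28 against 15.6 by length, and for day 10 only regions 124 against 70.8, so listed genes stood above the background in all 3 region lists. These are counts with no test, and the lists were chosen with earlier results of these data known. Below, a region over an exon is one that shared at least 1 bp with an exon of the named gene.

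Transcription factors of cartilage had the highest share of any list, 8 of 47 genes (17.0%, interval 8.89% to 30.1%), against 2.94 by gene length. Sox9, the master regulator of chondrocytes, had a region just past its end at chr11:112787797-112789201, which began 36 bp downstream of the gene, was 1405 bp wide and lay 14224 bp from the nearest day 10 region. No other 5hmC region of either day was assigned to Sox9. Sox5, its partner, had an intronic region (chr6:144061738-144062756) with 4 AP-1 strings, none in the central 200 bp, and also 1 shared and 4 day 10 only regions. Sox4, a SOX factor of progenitor cells, had a region 5584 bp upstream of the gene and none at day 10.

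All 3 RUNX genes were among the 8. Runx1 had 2 intronic regions (chr16:92626173-92627105 and chr16:92779813-92780810), each with 1 AP-1 string, and 3 day 10 only regions, of which the nearest was 3898 bp away. Runx2, needed for chondrocyte hypertrophy and bone, had an intronic region of 634 bp and 2 day 10 only regions. Runx3 had an intronic region of 919 bp, with the string shown above, and no day 10 5hmC. Foxo3 and Trps1, a GATA-type repressor that acts in the growth plate, had 1 intronic region each and 1 day 10 only region each. Day 10 only regions were at 11 of the 47 genes, against 5.92 by length.

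For genes of the extracellular matrix, 6 of 68 had a day 5 only region (8.82%), against 3.30 by length. At Col3a1, a fibrillar collagen of soft connective tissue, the region touched a coding exon at the gene's start (chr1:45311520-45311974, midpoint 209 bp from the start). Col12a1, a collagen that associates with fibrils, had 2 regions, both over coding exons (chr9:79639488-79640153 and chr9:79648247-79649123). Neither gene had 5hmC listed at day 10, nor did Col5a2, a collagen of the same gene cluster as Col3a1, whose region was intronic (chr1:45496277-45496674). Lox, the collagen crosslinking enzyme, had a region upstream, 3921 bp from the gene (chr18:52533789-52534419). Fbn1, the main fibrillin of microfibrils, had 2 intronic regions (chr2:125325037-125325584 and chr2:125367839-125368326) with 2 shared and 2 day 10 only regions beside them. Col27a1, a cartilage collagen, had an intronic region of 1673 bp. The collagens that define cartilage itself, Col2a1, Col10a1 and the proteoglycan gene Acan, had no day 5 only region. Over all protein-coding genes 3.45% had one, so absence from so few genes cannot set them apart.

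Of 81 genes of the actin cytoskeleton and focal adhesions, 10 had a day 5 only region (12.3%), against 5.32 by length. Tns3, an adhesion scaffold, had 2 neighbouring regions (chr11:8438677-8439782 and chr11:8444596-8445711), the second over a coding exon and with an AP-1 string in its centre. Dock1, an exchange factor for RAC, had a region over a coding exon (chr7:135172229-135172972). The nonmuscle myosin gene Myh9, with a region of 1421 bp, and Tns1 had regions over noncoding exons. Tln2, Lpp, Pdlim5, Itgb5 and Mrtfa, the actin-controlled coactivator of SRF, had their regions in introns or upstream, and each of these 5 also had at least 1 day 10 only region.

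WNT signalling had 7 of 62 genes (11.3%), against 3.57 by length. Among ligands, Wnt5b, which acts on chondrocyte proliferation and maturation, had 3 regions. Of these, chr6:119445991-119446893 touched a coding exon, and chr6:119526131-119527261 and chr6:119535870-119536769 were intronic, 17651 and 8028 bp from the gene's start. A single day 10 only region was assigned to Wnt5b. Wnt4 had 1 intronic region. Among receptors, Ror2 had a second region at chr13:53248525-53249854, 3908 bp from a day 10 region. Among the nuclear effectors, Lef1, Tcf7l1 and Tcf7l2 each had a region, and Daam1, which links the noncanonical pathway to actin, had 1. All of the 7 except Lef1 also had a day 10 5hmC region, against 237 of all 794 genes with a day 5 only region (29.8%).

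Hedgehog, PTHrP and Notch signalling had 6 of 41 genes (14.6%, interval 6.88% to 28.4%), against 2.17 by length. Pthlh, the PTHrP ligand that holds chondrocytes back from hypertrophy, had a region over a coding exon (chr6:147252526-147253156) with an AP-1 string in its centre. Ptch1, the Hedgehog receptor, had a region over a coding exon (chr13:63513082-63514143), also with a central AP-1 string. Of the GLI factors, which carry the Hedgehog signal to the genome, Gli2 had a region over a noncoding exon and Gli3 a region 1267 bp upstream (chr13:15461511-15461967), shown above. Evc, a component of the ciliary Hedgehog pathway, had a region over a coding exon (chr5:37302680-37303501). None of these 5 had a 5hmC region at day 10, whereas Maml3, a Notch coactivator, had 1 shared and 6 day 10 only regions. Of all 794 genes with a day 5 only region, 237 (29.8%) had 5hmC at day 10, so its absence was common.

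In the Hippo pathway, 4 of 32 genes (12.5%) had a day 5 only region, against 1.93 by length. Yap1, the coactivator that binds TEAD factors, had its region over a coding exon (chr9:7949947-7950935) with the AP-1 string shown above, and Ccn1, a known YAP target, had a region 6799 bp upstream. Wwc1 and Wwc2, upstream regulators that restrain YAP, had a region each. No listed Hippo gene had a shared region, against 0.861 by length, and 9 had a day 10 only region, against 3.95 by length. The AP-1 and bZIP factors had 5 of 42 genes (11.9%), against 1.40 by length. Fosb (chr7:19306875-19307869) and Fosl2 (chr5:32146056-32147007) had regions over coding exons. Nfe2l2, the regulator of the oxidative stress response, had a region 109 bp upstream of its start (chr2:75704751-75705828). Creb3l2, a factor of secretory load in chondrocytes, and Hlf had intronic regions. None of these 5 genes had a 5hmC region at day 10, which was so for most of the 794 genes with a day 5 only region (237 had one, 29.8%).

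Insulin, IGF and PI3K signalling, the pathway that the differentiation medium acts through, had 6 of 52 genes (11.5%), against 3.20 by length. Among them were the kinase gene Pik3cb, Rptor, a subunit of mTOR complex 1, Phlpp1, Foxo3 and Hmga2, each with an intronic region. FGF, EGF and MAP kinase signalling had 6 of 68 (8.82%), against 3.87 by length. Map2k6, a kinase of the p38 pathway, had a region of 1559 bp over a coding exon (chr11:110498392-110499950), and Ets2, an ETS factor downstream of ERK, had a region over a coding exon (chr16:95712063-95712799). Map3k1 (chr13:111809527-111810118) and Pdgfrb (chr18:61040911-61041658) had regions 533 and 3491 bp upstream. Grb2 and Elk3 had intronic regions.

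TGF-beta and BMP signalling had 2 of 57 genes (3.51%, interval 0.968% to 11.9%), against 2.76 by length. These were Bmpr1b, a BMP receptor needed for cartilage condensation, with a region over a coding exon (chr3:141857095-141857806), and Smad3, with an intronic region. The Bmpr1b region held an AP-1 string in its centre. DNA methylation and histone modifying enzymes had 6 of 71 (8.45%), against 4.45 by length. Arid1b had 2 regions (chr17:5317757-5318440 and chr17:5327194-5328222) and Kat6b, a histone acetyltransferase gene, had 2 (chr14:21565499-21566208 and chr14:21601732-21602513). Mbd2, which encodes a methyl-CpG binding protein, had a region 2724 bp upstream (chr18:70564811-70565464). Gadd45b, Zbtb38 and Chd7 had 1 region each, and no TET or DNMT gene had any. With a share of 3.45% over all protein-coding genes, absence from so few genes cannot set the TET and DNMT genes apart. Markers of other mesenchymal lineages had 3 of 31 (9.68%), against 1.28 by length. They were Plin1 of fat cells, Dmp1 of osteocytes (chr5:104197183-104197966, 4646 bp upstream) and Egr2, a growth response factor.

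**Figure D5:**
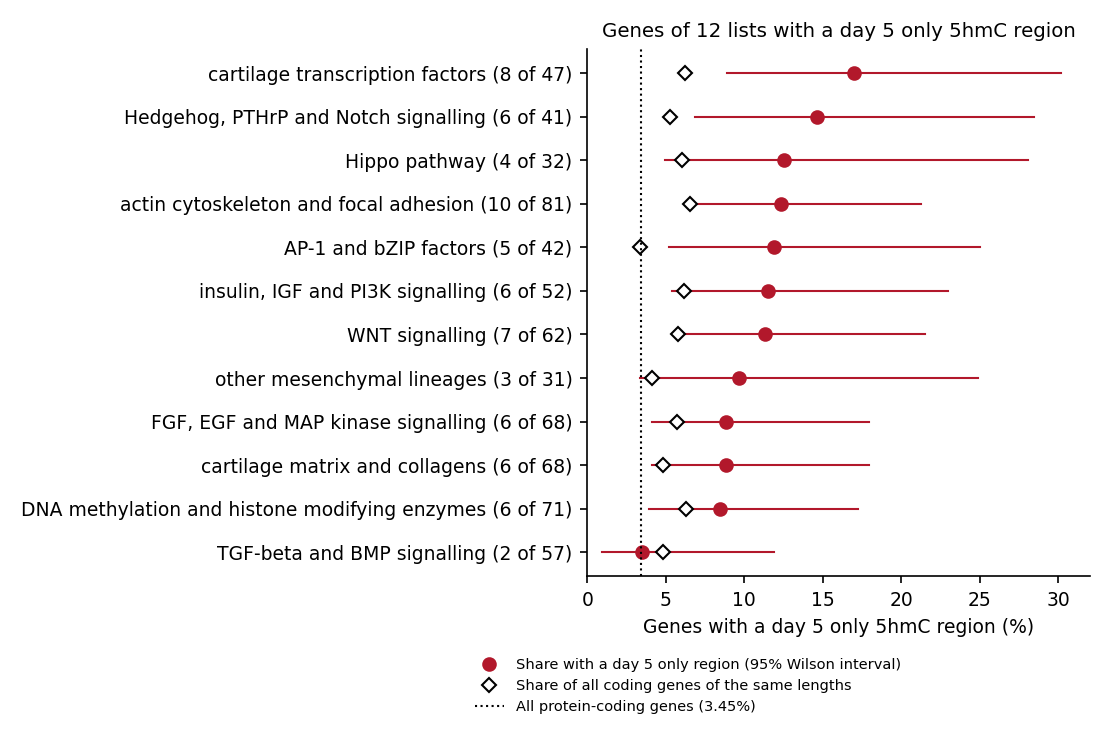
Share of the genes of each list (%) with a day 5 only 5hmC region (points, with 95% Wilson intervals), beside the share of protein-coding genes of the same length classes (diamonds) and of all protein-coding genes (dotted line, 3.45%). The cartilage transcription factors stood highest at 17.0%, and TGF-beta and BMP signalling at 3.51% stood at the background.

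Of the 77 regions at listed genes, 44 lay in introns of the named gene and 14 had an AP-1 string in the central 200 bp. Over all 880 regions the numbers were 527 (59.9%) and 195 (22.2%). Of the 68 genes, 30 also had a 5hmC region at day 10, and the other 38 had 5hmC listed at day 5 alone. Of all 794 genes with a day 5 only region, 237 (29.8%) had one at day 10. The listed genes were not compared with them by a test.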

How the data were processed

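Reads were trimmed by the authors and mapped to GRCm38 (mm10) by BWA, and peaks were called by MACS 1.4.2 at default settings and annotated by HOMER, per the study's methods and the submitters' processing notes. The deposited files hold coordinates, a gene symbol and an accession for each region, with no signal, fold or count. Per the file headers, 5hmC lists hold regions of at least 10-fold enrichment in merged samples and 5mC lists of at least 3-fold. The control of the peak calling is not named there. A different control, depth or threshold would change which regions are listed and their width.

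Empty rows were dropped and no region was filtered. Overlap meant at least 1 bp. Symbols were matched through the accession to RefSeq (866 of 880 regions), which also resolved 5 symbols turned into dates. For 869 regions the named gene was found on the same chromosome in the mouse GENCODE release M21, whether or not the region lay inside it. Motifs were counted as exact strings on both strands in GRCm38.p6. Shares were compared with two-sided Fisher's exact tests in scipy 1.17.1 (Python 3.11.15), with Benjamini-Hochberg adjustment within the families location, motifs and 5mC overlap, and the scripts were tested on simulated data. Named were the 10 genes with most regions, the 5 widest regions, the regions at the edge of the rule, and listed genes with a region, with positions for those with at least 2 regions or a region at a promoter or coding exon. The printed windows leave out those that touch a UTR and those on chromosome 18. Genes chosen after their values were seen are Col2a1, Col10a1, Acan, the TET and DNMT genes and those with 5mC. The regions, the gene lists and the tests were chosen with earlier results of these data known. Some genes of the lists are not reported here by name.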

Additional observations from a re-analysis of the deposited data

How the results depend on the processing

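No paired analysis was possible because the 2 5hmC samples of each day were merged into 1 list, so that no column carries a replicate number and no sample was left out in turn. Of the values under other settings, 285 kept their direction and side of the threshold or stayed in their interval. For the number and total length of regions, a change within 1.5-fold was counted among these. A further 8 left their interval, 20 turned sign, 10 came past the threshold and 2 fell short of it. Some of the 285 had no room to change. Keeping only chromosomes 1 to 19, X and Y left the same 880 regions, and no compared list overlapped day 0 5mC. Values are percentage points (day 5 only regions at genes minus the list named) unless a unit is given. When only a day 10 region covering 50% of the day 5 region removed it, 1224 regions remained and 7 were shared. The median width was then 830 bp, the median gap 46539 bp and the share of genes with a day 10 region 47.5%. Against the 7, AP-1 differed by 19.3 (adjusted p = 0.816, Fisher's exact test), TEAD by 13.9, RUNX by -5.79 and NF1 by -38.5 (adjusted p = 0.026, 3 of 7, same exact test). Day 10 5mC then differed by 0.815 from day 10 only regions (adjusted p = 0.0161, exact test) and by -0.0315 from those without a symbol. With a promoter of 2000 bp, promoters differed by 2.88 from day 10 only regions and introns by -7.12 from shared ones, and with protein-coding genes alone promoters differed by 3.21, each past the threshold.

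In windows of 500 bp, differences from regions without a symbol were -0.493 for AP-1, -0.819 for RUNX, 1.71 for NF1 and -0.158 for SOX. TEAD differed by 0.204 from shared and 0.176 from day 10 only regions, and RUNX by -1.59 from shared ones, each with the sign turned and none past the threshold. Over whole regions, which are several times wider at day 5, differences from day 10 only regions were 27.3 for TEAD, 16.8 for RUNX, 8.05 for NF1, 22.6 for SOX and 1.02 for CRE, all past the threshold. From shared regions they were -3.20 for RUNX, -7.67 for NF1 (past it) and -0.308 for SOX, and from regions without a symbol -7.75 for TEAD (past it) and 1.77 for NF1. Outside repeats NF1 differed by 0.235 from the latter. With annotated genes in place of the authors' symbols, CRE differed by 0.485 from day 10 only regions (5 of 1030 against none, past it) and 0.247 from those without a symbol, RUNX by -0.216 from shared ones and day 10 5mC by -0.231 from those without a symbol, and 25.6% of genes had a day 10 region. Within 1000 bp, day 10 5mC differed by -1.998 from shared regions (adjusted p = 0.15, exact test). In the central 200 bp the median differences from flanks were 1 CpG per 100 bp, -12.9% repeat and 5.5% GC, and with flanks 10000 bp away 3.69% GC. The causes of these changes were not tested.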

Other observations

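5mC regions at day 10 were listed elsewhere in many of the same genes. Of the 794 genes with a day 5 only 5hmC region, 154 (19.4%, 95% Wilson interval 16.8% to 22.3%) also had a day 10 5mC region, against 5.88% of 21913 protein-coding genes, and 11 had a day 0 5mC region, against 0.493%. Within 10000 bp of a day 5 only region a day 10 5mC region was found for 43 of 880. The genes with a day 5 only region were also longer, and the part of gene length was not tested.

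Most of the 880 regions, 840, were assigned to protein-coding genes. The others included 15 at lincRNA genes and 7 given the symbol of a microRNA gene. None of these 7 lay on the chromosome where GENCODE places that gene, so their symbols do not give the nearest gene in that annotation. Of the 7, 3 were assigned to Mir3098, at chr2:131452131-131452771, chr2:131478071-131478705 and chr2:131590068-131590965. The nearest day 10 5hmC region lay 1631681 bp from the first of these, and the second held an AP-1 string 10 bp from its midpoint.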
